A study of Homo sapiens with 16 samples.

Results

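The nuclear respiratory chain subunit genes are the protein-coding genes of the cell nucleus whose products build the 5 complexes of oxidative phosphorylation. They were chosen by a rule on symbols, with earlier results of these data known. The rule took names that begin with NDUFA, NDUFB, NDUFC, NDUFS, NDUFV, UQCR, COX4I, COX5, COX6, COX7, COX8 or ATP5, together with SDHA, SDHB, SDHC, SDHD and CYC1. It left out the NDUFAF assembly factors and hyphenated read-through genes. This gave 89 genes of the 64252 identifiers counted in each library, with 37 in complex I, 4 in complex II, 10 in complex III, 19 in complex IV and 19 in complex V. NDUFA4 and NDUFA4L2 were counted with complex IV, where the NDUFA4 protein is found. Of the 89 genes, 83 had enough counts to be tested and 6 did not.

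Messenger RNA was sequenced from Jurkat and 6T-CEM, established human lines that the labels describe as T-cell acute lymphoblastic leukaemia (T-ALL) cells, transfected either with sh-NC, a control short hairpin RNA, or with sh-SH2D1A, a hairpin directed at SH2D1A. SH2D1A encodes a small adaptor protein that binds SLAM family receptors in T cells. The 8 groups, of 2 libraries each, were Jurkat at day 8 with sh-NC, Jurkat at day 8 with sh-SH2D1A, Jurkat at day 10 with sh-NC, Jurkat at day 10 with sh-SH2D1A, and the same pair of hairpins in 6T-CEM at day 5 and at day 10. The starting point of the day count, whether cells were clones or pools, and whether replicate libraries came from separate cultures are not in the labels, and p-values therefore reflect the spread between libraries only, which may be technical. All comparisons of expression below are per total messenger RNA, and in such bulk samples fewer cells with a transcript and less transcript per cell cannot be told apart.

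Electrons from food enter the respiratory chain through complex I, which oxidises NADH, and through complex II, succinate dehydrogenase, which is also an enzyme of the citric acid cycle. Complex III passes them to cytochrome c and complex IV passes them on to oxygen, while protons are pumped across the inner membrane, and complex V, the ATP synthase, uses the return of protons to make ATP. Complexes I, III, IV and V mix nuclear subunits with a few that the mitochondrial genome encodes, whereas complex II is wholly nuclear.

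The promoters of 4 genes named in the results below are shown as a description. NDUFA1, SDHD and ATP5F1A fell with sh-SH2D1A, and SDHB, a partner of SDHD in complex II, had no call. Each line is the 250 bases before the start that RefSeq gives in GRCh38.p14, written 5′ to 3′ on the strand of the gene, which is + for NDUFA1 (chrX:119871582-119871831) and SDHD (chr11:112086623-112086872) and - for ATP5F1A (chr18:46104228-46104477) and SDHB (chr1:17054033-17054282). Capitals mark matches, on either strand, to GCGCATGC, bound by NRF1, or to CCGGAAG, a core bound by ETS factors such as the GABP proteins.
NDUFA1: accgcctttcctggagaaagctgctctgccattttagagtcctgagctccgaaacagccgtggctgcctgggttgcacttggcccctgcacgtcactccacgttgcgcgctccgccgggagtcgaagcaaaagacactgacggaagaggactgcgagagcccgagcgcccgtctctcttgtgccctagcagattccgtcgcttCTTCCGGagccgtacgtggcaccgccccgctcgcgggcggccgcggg
SDHD: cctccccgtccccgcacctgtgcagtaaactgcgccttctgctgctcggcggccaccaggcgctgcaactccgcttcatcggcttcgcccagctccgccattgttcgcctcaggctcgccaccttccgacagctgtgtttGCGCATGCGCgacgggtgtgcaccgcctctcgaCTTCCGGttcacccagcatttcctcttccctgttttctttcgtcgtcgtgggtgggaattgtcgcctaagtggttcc
ATP5F1A: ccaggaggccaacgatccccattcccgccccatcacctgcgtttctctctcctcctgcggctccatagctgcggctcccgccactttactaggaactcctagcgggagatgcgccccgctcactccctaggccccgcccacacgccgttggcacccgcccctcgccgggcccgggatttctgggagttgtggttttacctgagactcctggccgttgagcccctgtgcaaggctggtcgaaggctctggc
SDHB: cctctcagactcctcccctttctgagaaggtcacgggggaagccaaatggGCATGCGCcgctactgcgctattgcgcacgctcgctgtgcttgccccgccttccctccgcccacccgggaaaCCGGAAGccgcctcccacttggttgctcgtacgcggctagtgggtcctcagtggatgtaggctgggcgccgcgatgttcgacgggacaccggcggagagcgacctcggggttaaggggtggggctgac

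The ETS core began 47 bases before the RefSeq start of NDUFA1, 77 before that of SDHD and 128 before that of SDHB. The NRF1 letters began 200 bases before the start of SDHB, and in SDHD a single stretch matched on both strands, with overlapping matches that began 110 and 108 bases before the start. ATP5F1A had no match in this window. In GENCODE 29 all of these genes begin further upstream than in RefSeq. They begin at 119871487 for NDUFA1, 112086773 for SDHD, 46104334 for ATP5F1A and 17054170 for SDHB. By those starts the ETS cores lie inside the genes and the NRF1 letters before them. RefSeq promoters of 70 subunit genes were matched by symbol, in windows that also take in 50 bases after the start. In these, the NRF1 letters were found in 18.6%, the ETS core in 28.6% and AAGATGGC, bound by YY1, in 15.7%, against 3.27%, 10.7% and 3.03% of all 27305 promoters of the same length. At least 1 of the 3 was found in 34 of the 70, or 48.6%, against 15.6% of all promoters. A match is a stretch of letters and no evidence of binding in these cells.

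Total counts ranged from 27217899 to 33788024 per library, so a gene with no count could still hold up to 3 counts, which is 0.0888 to 0.110 CPM by counting error only. CPM are counts relative to the library total, scaled by TMM. In every comparison with its own control, SH2D1A was lower with sh-SH2D1A: it lay between 154 and 204 CPM in the 8 sh-NC libraries and between 49.4 and 80.8 CPM in the 8 sh-SH2D1A libraries. The T-cell identity of the lines was checked with 12 T-cell markers, whose summed level lay between 1380 and 3580 CPM in every library, with CD3E at 365 CPM or above. CD2 ranged from 0.991 to 112 CPM and TRBC1 from 3.03 to 396 CPM. Summed levels reached at most 3.13 CPM for 8 myeloid markers, 5.73 CPM for 5 epithelial and packaging cell markers and 4.21 CPM for 6 erythroid markers. The 6 B-cell markers summed to between 16.7 and 75.7 CPM, nearly all of it CD79A, while MS4A1, which defines mature B cells, had a median of 0.

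Of each library's counts, the 89 genes held 0.617 to 0.717% in Jurkat. In 6T-CEM they held 0.703 to 0.716% at day 10 and 0.485 to 0.509% at day 5. The 4 libraries of 6T-CEM at day 5 were thus the lowest of the 16, with no overlap. Complexes I, III, IV and V were all lowest there, and complex IV most so, at 0.0592 to 0.0683% against 0.0994% and above elsewhere. Complex II behaved otherwise, at 0.0263 to 0.0314% in those libraries and 0.0271 to 0.0337% in the other 12. Within each line and day, both sh-SH2D1A libraries held less complex II than both sh-NC libraries. Genes of the mitochondrial genome went the other way between days in 6T-CEM, at 7.44 to 9.19% at day 5 and 6.13 to 6.55% at day 10. In Jurkat they held 3.95 to 4.47%.

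**Figure D1:**
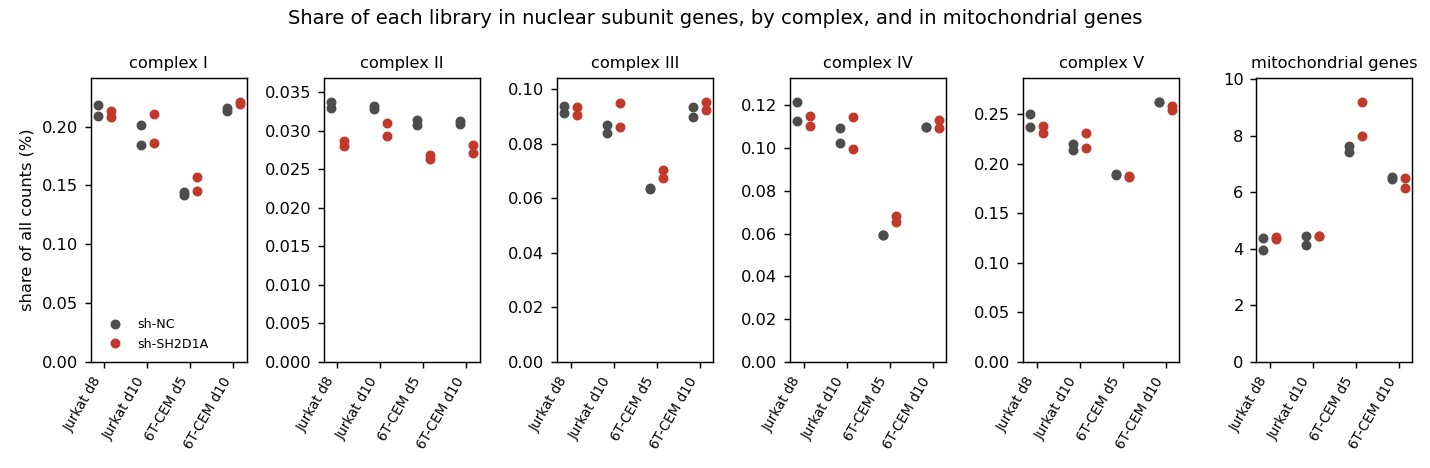
Share of each library's counts (y axes, percent, each from 0) held by the nuclear subunit genes of each complex and by mitochondrial genes, for the 16 libraries (points) by line and day (x axis), sh-NC grey and sh-SH2D1A red. Complexes I, III, IV and V are lowest in the 4 libraries of 6T-CEM at day 5, while complex II differs mainly between the hairpins.

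Levels were compared between genes per length, as CPM per kilobase of the gene's median coding transcript in GENCODE 29. On this scale ATP5F1B, the catalytic β subunit of the ATP synthase, stood highest of all with a mean of 810 CPM per kilobase over the 16 libraries, and ranked first with the length of all exons too. The highest genes of the other complexes were COX4I1 in complex IV at 248, UQCRC2, a core protein of complex III, at 296, NDUFV1, which holds the NADH site of complex I, at 214, and SDHC, a membrane anchor of complex II, at 204 CPM per kilobase. SDHC ranked 8th by transcript length and 76th by the length of all exons, so these ranks depend on the gene model. The lowest tested gene of each complex was NDUFA3 in complex I at 6.78, SDHA in complex II at 53.8, UQCRHL in complex III at 1.61, COX6B2 in complex IV at 0.317 and ATP5F1E in complex V at 28.2 CPM per kilobase.

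Where a subunit has tissue-restricted relatives, the general form was the abundant one. COX4I2, COX6A2, COX7A1, COX7B2 and COX8C, forms known from lung, muscle or testis, were not tested, with 9, 0, 35, 0 and 23 counts summed over the 16 libraries, nor was ATP5MGL with 20. Their general partners were all higher than these forms. COX4I1 ranged from 137 to 230 CPM, COX6A1 from 86.4 to 167 and COX7A2 from 27 to 86.6 CPM. COX7B ranged from 26.7 to 42.7 and COX8A from 36.8 to 151 CPM. COX6B2, the testis form, stayed at or under 1.09 CPM while COX6B1 ranged from 31.4 to 72.1 CPM. NDUFA4L2, a relative of NDUFA4 known to be induced by low oxygen, ranged from 1.11 to 7.62 CPM against 55.3 to 83.3 CPM for NDUFA4. UQCRHL, an intronless near-copy of UQCRH, ranged from 0.792 to 5.37 CPM against 46.2 to 129 CPM for UQCRH, and reads of the 2 copies may be exchanged by the counting. COX7A2L, which helps complexes III and IV associate, ranged from 19.7 to 46.6 CPM, and ATP5IF1, the inhibitor of the ATP synthase, from 29.7 to 69.8 CPM.

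The first question was whether the subunit genes differed between sh-SH2D1A and sh-NC in each line and day. Most did not pass the test, and those that did formed a small set led by NDUFA1 and SDHD, which fell in all 4 comparisons. In edgeR's quasi-likelihood test with Benjamini-Hochberg adjustment, 5 of 83 members were lower and 0 higher in Jurkat at day 8, where 7.13% of all tested genes were lower and 5.23% higher. In Jurkat at day 10, 2 were lower and 0 higher, against 2.52% and 1.26% of all genes. In 6T-CEM at day 5, 3 were lower and 0 higher, against 1.51% and 0.606%. In 6T-CEM at day 10, 5 were lower and 5 higher, against 7.42% and 6.61%. Of the 83 members, 72 were called in none of the 4, as were 13288 of the 17521 genes tested in all 4. The members' median log2 change was -0.03, 0.02, 0.10 and -0.01 in that order, while the median over all tested genes was within 0.004 of 0 in each. Of all genes the DESeq2 Wald test called 2591, 1054, 1118 and 3330, and of the members 5, 2, 3 and 15. In Jurkat at day 8 the count was 10 without sh-NC replicate 1 and 3 without sh-SH2D1A replicate 2, and at day 10 it was 0 without sh-NC replicate 1. In 6T-CEM at day 5 it was 0 without sh-NC replicate 2, 8 higher and 6 lower without sh-SH2D1A replicate 1, and 3 higher and 3 lower without sh-SH2D1A replicate 2. In each of these omissions the count over all genes moved in the same direction as that of the members. With all 16 libraries in the fit the members called in 6T-CEM at day 5 were 8 higher and 6 lower, so the higher calls at day 5 depended on these choices. That fit called 3108 of all genes at day 5, against 412 in the main fit. At day 10 in 6T-CEM the fit of 16 libraries called 0 members higher and 3 lower, and 916 of all genes against 2752 in the main fit.

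**Figure D2:**
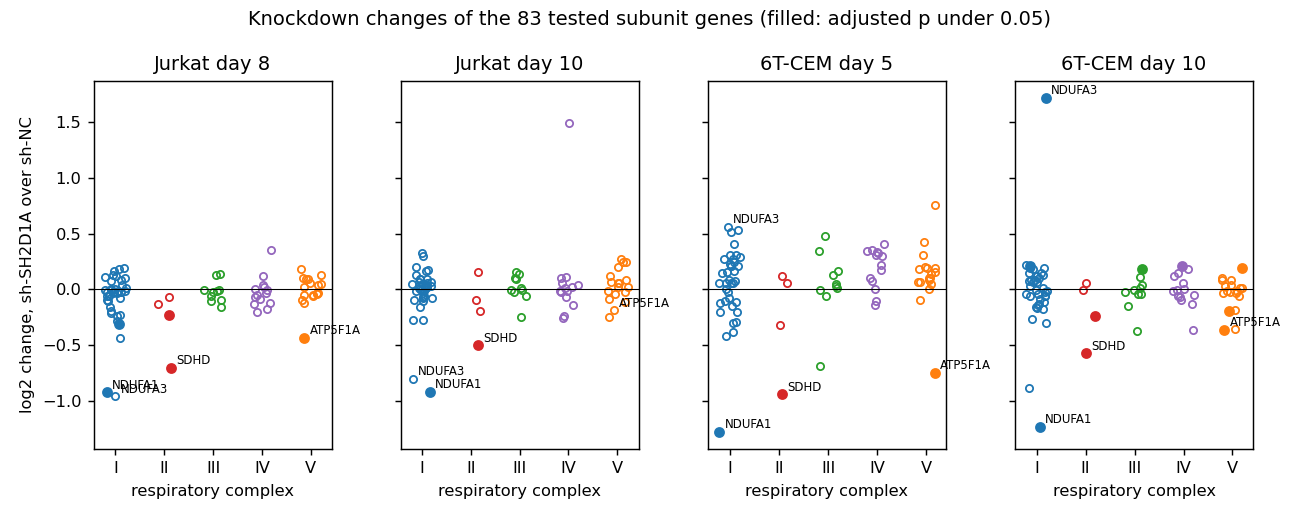
Log2 change of the 83 tested subunit genes (y axis, sh-SH2D1A over sh-NC) by complex (x axis, points spread sideways), 1 panel per line and day, filled where the adjusted p was under 0.05. NDUFA1 lies at -0.92, -0.92, -1.28 and -1.23 from left to right and SDHD at -0.71, -0.50, -0.94 and -0.57, while most other genes lie near 0.

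NDUFA1 encodes a small accessory subunit of the membrane arm of complex I and lies on chromosome X, at 119871487 to 119876662 on the + strand of GRCh38 in GENCODE 29. Its level was 23.1 and 23.6 CPM with sh-NC against 13.2 and 11.5 with sh-SH2D1A in Jurkat at day 8, and 23.8 and 18.6 against 12.5 and 9.89 at day 10. In 6T-CEM it was 9.81 and 10.8 against 4.34 and 4.07 CPM at day 5, and 25.4 and 25.9 against 9.85 and 11.9 at day 10. Both sh-SH2D1A libraries lay below both controls in each comparison. The log2 changes were -0.92 ± 0.12 (SE), -0.92 ± 0.18, -1.28 ± 0.25 and -1.23 ± 0.12, with adjusted p of 0.00356, 0.0178, 0.0347 and 0.000361 in edgeR. No other member changed by as much on average, with a mean over the 4 of -1.09 ± 0.08. The call at day 10 in Jurkat was lost without sh-NC replicate 1 (adjusted p = 0.0742 in edgeR), and that in 6T-CEM at day 5 without sh-NC replicate 2 (adjusted p = 0.0876 in edgeR). With no filter on low counts these 2 calls were lost as well, at adjusted p of 0.3 and 0.0583 in edgeR. In Jurkat at day 10 that fit called 0 of all genes, against 721 in the main fit. RNF113A, which overlaps NDUFA1 on the other strand, had no call in any of the 4, with log2 changes from -0.34 to -0.02, and a mean over the 4 of -0.21 ± 0.07 (adjusted p = 0.0413 in edgeR). Whether reads were counted by strand is not given in the sources used here.

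SDHD encodes a membrane anchor of succinate dehydrogenase and lies on chromosome 11, at 112086773 to 112120013 on the + strand. In Jurkat its level was 54.5 and 58.2 CPM with sh-NC against 37.6 and 31.9 with sh-SH2D1A at day 8, and 56.4 and 52.3 against 39.9 and 36.7 at day 10. In 6T-CEM it was 83.5 and 90.1 against 43.1 and 46.5 CPM at day 5, and 82.9 and 79.4 against 55.6 and 53.3 at day 10. The controls of 6T-CEM were higher than those of Jurkat, and the groups did not overlap in any comparison. The log2 changes were -0.71 ± 0.09, -0.50 ± 0.10, -0.94 ± 0.13 and -0.57 ± 0.05, with adjusted p of 0.00389, 0.0195, 0.0099 and 0.00025 in edgeR. Without Jurkat day 10 sh-NC replicate 1 or sh-SH2D1A replicate 2 the adjusted p in edgeR was 0.0593 or 0.0594, and without 6T-CEM day 5 sh-NC replicate 2 it was 0.0559. With no filter it was 0.237 in Jurkat at day 10, where that fit called 0 of all genes. TIMM8B, an import chaperone gene that overlaps SDHD on the other strand, had changes from 0.15 to 0.46, and rose at day 10 in 6T-CEM and in the mean over the 4 (0.29 ± 0.07). NDUFA1 and SDHD were 2 of the 116 genes called lower in all 4 comparisons, which is 0.662% of the 17521 genes tested in all 4.

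The other subunits of complex II did not follow SDHD together. SDHA, the flavoprotein that oxidises succinate, was 144 and 145 against 124 and 123 CPM in Jurkat at day 8, 150 and 149 against 135 and 125 at day 10, 95.8 and 91.0 against 78.6 and 69.6 in 6T-CEM at day 5, and 81.5 and 81.3 against 69.9 and 67.8 at day 10. All 8 sh-SH2D1A libraries lay below their own controls, with log2 changes of -0.23 ± 0.05, -0.20 ± 0.08, -0.32 ± 0.13 and -0.24 ± 0.05. Adjusted p in edgeR was 0.0211, 0.22, 0.235 and 0.0101, so SDHA fell at day 8 of Jurkat and day 10 of 6T-CEM. The Jurkat call was lost without sh-SH2D1A replicate 1 or 2 (adjusted p = 0.138 and 0.187 in edgeR), with a replicate block (0.0515), with no filter (0.0675) and with all 16 libraries (0.0695), and the last also ended the 6T-CEM call (0.0746). The 6T-CEM day 5 value passed without sh-SH2D1A replicate 1 (0.0102) and with the block (0.0396). SDHB, the iron-sulphur subunit, had changes of -0.07, 0.16, 0.05 and 0.06 and SDHC of -0.13, -0.09, 0.12 and -0.004, with no call for either.

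**Figure D3:**
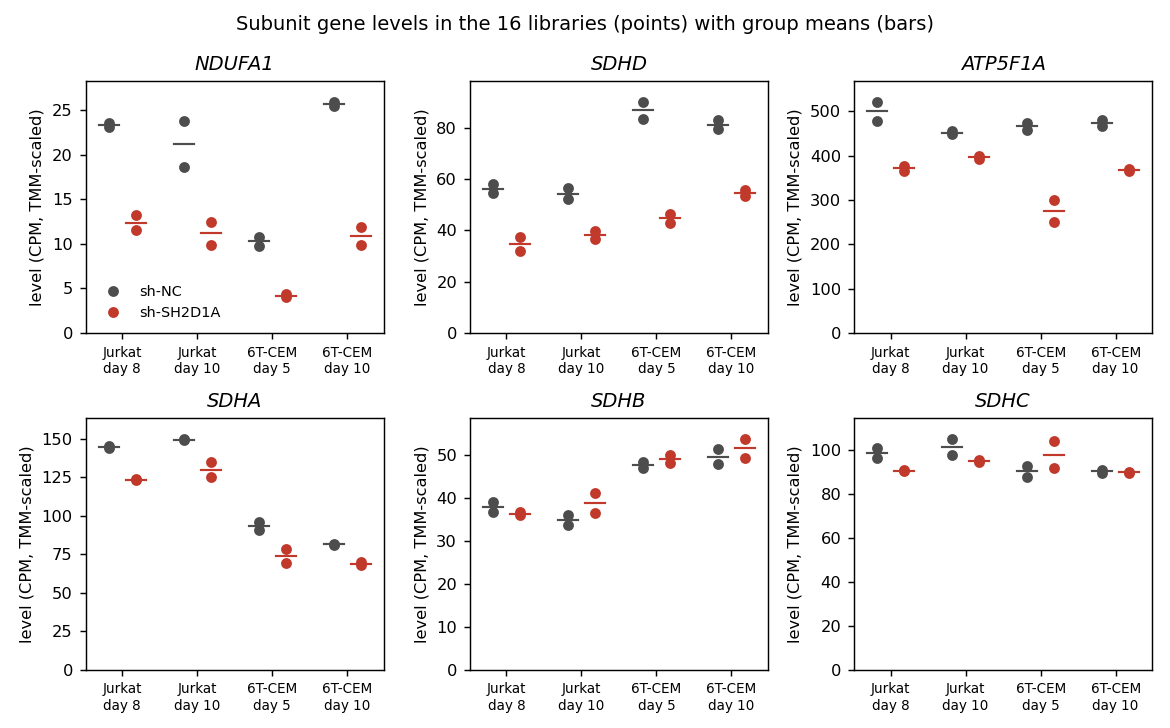
Levels (y axes, CPM scaled by TMM, each from 0) of NDUFA1, SDHD, ATP5F1A, SDHA, SDHB and SDHC in the 16 libraries (points) by line and day (x axis), sh-NC grey and sh-SH2D1A red, bars at group means of 2 libraries. NDUFA1, SDHD, ATP5F1A and SDHA have both red points below both grey points in each column, and SDHB and SDHC do not in every column.

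In complex V, ATP5F1A, the α subunit of the catalytic head, was the main gene to fall. It was 479 and 521 against 366 and 377 CPM in Jurkat at day 8 and 449 and 455 against 399 and 393 at day 10. In 6T-CEM it was 459 and 474 against 251 and 299 CPM at day 5 and 481 and 467 against 370 and 365 at day 10. The groups did not overlap in any of the 4, and the level with sh-SH2D1A was lowest in 6T-CEM at day 5. The log2 changes were -0.43 ± 0.06, -0.19 ± 0.07, -0.75 ± 0.12 and -0.36 ± 0.03, with adjusted p of 0.00355, 0.197, 0.0179 and 0.000178 in edgeR. The day 5 call was lost without sh-NC replicate 1 or 2 (adjusted p = 0.0746 and 0.126 in edgeR). ATP5F1B, its partner in the same hexamer, was 620 to 672 CPM with sh-NC and 631 to 692 CPM with sh-SH2D1A in Jurkat, and had no call. HAUS1, which overlaps ATP5F1A on the other strand, had none either, with changes from -0.03 to 0.29.

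The remaining calls were small, with 1 exception, and were made in single comparisons. NDUFS7, an iron-sulphur core subunit of complex I, fell in Jurkat at day 8 by 0.31 on the log2 scale (adjusted p = 0.0374 in edgeR), from 78.5 and 91.0 CPM to 69.7 and 68.1 CPM. That call was lost without sh-NC replicate 2, sh-SH2D1A replicate 1 or sh-SH2D1A replicate 2 (0.107, 0.126 and 0.183). In 6T-CEM at day 10, NDUFB4, CYC1, NDUFA4 and ATP5F1D rose by 0.21, 0.19, 0.21 and 0.19 and ATP5F1E fell by 0.19 on the log2 scale. Each of these 5 lost its call without at least 1 library, at adjusted p of up to 0.0884, 0.217, 0.144, 0.182 and 0.222 in that order in edgeR. The exception was NDUFA3, which rose there by 1.72 ± 0.27 (adjusted p = 0.00407), from 2.19 and 1.45 to 5.17 and 6.77 CPM. Its replicates were far apart elsewhere, at 5.79 and 0.814 CPM in Jurkat day 8 sh-NC and 6.15 and 1.10 CPM in Jurkat day 10 sh-NC. It overlaps TFPT on the other strand, and with all 16 libraries in the fit its adjusted p was 0.345 in edgeR.

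Averaged over the 4 comparisons, in the fit of all 16 libraries, 5 members were higher and 7 lower, where 10.7% of all tested genes were higher and 12.3% lower. Besides NDUFA1, SDHD, ATP5F1A, SDHA and NDUFS7, the lower genes were NDUFA10 at -0.13 and NDUFC2 at -0.21. The higher genes were NDUFC1 at 0.23, NDUFAB1, the mitochondrial acyl carrier protein, at 0.19, ATP5MC1 and NDUFA4 at 0.17 and ATP5PO at 0.14. Between 9 and 19 members were called when single libraries were left out, and the highest count came without 6T-CEM day 5 sh-SH2D1A replicate 1. NDUFA4, ATP5MC1, NDUFA10 and ATP5PO each lost the call in 1 omission or more, with adjusted p in edgeR up to 0.0932, 0.0751, 0.0662 and 0.0525. The difference in the knockdown change between lines at day 10, between days in 6T-CEM and between days in Jurkat was called for 0 members each in edgeR, with 3, 17 and 2 at an unadjusted p under 0.05, and with DESeq2 size factors the counts were also 0. Of all genes, 0.812%, 0.681% and 0.00454% were called in either direction. At an unadjusted p under 0.05 in edgeR there were 2133, 2892 and 1468 of all 22032 tested genes, in the same order. For ATP5F1A in 6T-CEM the change at day 10 was less negative than at day 5 by 0.40 ± 0.10 (adjusted p = 0.102 in edgeR). Without 6T-CEM day 5 sh-SH2D1A replicate 1, some members were called for the difference between days in 6T-CEM. In that omission the count over all genes also rose in the day 5 comparison and in the mean of the 4 changes. These calls are therefore not read as particular to the members.

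The second comparison was between day 10 and day 5 in 6T-CEM, in each arm. Most subunit genes were higher at day 10, complex II apart. With sh-NC, 61 of 83 members were higher and 4 lower, against 19.3% and 20.6% of all tested genes in edgeR. With sh-SH2D1A, 57 were higher and 6 lower, against 21.4% and 21.7%. The median log2 change was 0.65 and 0.63, against -0.01 and -0.02 over all genes. In both arms 54 members were higher and 3 lower, against 14.8% and 15.8% of all genes. Those 54 were 24 of 37 in complex I, 0 of 4 in complex II, 7 of 10 in complex III, 9 of the 14 tested in complex IV and 14 of the 18 tested in complex V. The tables of the 2 days were deposited separately, so the day and anything else that differed between the tables cannot be told apart.

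In complex I the largest rise was that of NDUFS6, a small subunit near the iron-sulphur clusters. It stood at 8.72 and 9.02 CPM at day 5 and 41.0 and 39.8 at day 10 with sh-NC, and at 8.17 and 5.02 against 38.4 and 39.6 with sh-SH2D1A. The Jurkat libraries, at 36.4 to 49.1 CPM, lay near the day 10 level. NDUFB2 rose by 1.76 ± 0.12 and 1.85 ± 0.12 on the log2 scale, but shares a locus with ADCK2 on the same strand, whose counts were 41.5 to 67.7% of the sum of both. NDUFA1 rose by 1.32 ± 0.16 and 1.37 ± 0.17 in the sh-NC and sh-SH2D1A arms. NDUFA5 and NDUFA10 went the other way, with log2 changes of -0.46 and -0.41 and of -0.29 and -0.31 in the 2 arms. The NDUFA10 call was lost without 6T-CEM day 10 sh-NC replicate 2 (adjusted p = 0.103 in edgeR) or sh-SH2D1A replicate 1 (0.0892), and the NDUFA5 call with sh-SH2D1A without replicate 2 of either day (0.0739 and 0.0616).

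In complex III, UQCR11 went from 16.3 and 16.9 CPM to 58.9 and 67.4 with sh-NC, and from 19.4 and 16.8 to 63.9 and 59.8 with sh-SH2D1A. UQCRQ, another small subunit, rose by 1.57 ± 0.11 and 1.58 ± 0.11, UQCRH by 1.12 and 1.08, and CYC1, the cytochrome c1 of the complex, by 0.61 and 0.87 on the log2 scale. UQCRC2 was lower, by -0.26 and -0.29, a call that was lost in the sh-NC arm without day 5 replicate 2 (adjusted p = 0.0576 in edgeR) or day 10 replicate 1 (0.0777), and in the sh-SH2D1A arm without day 10 replicate 2 (0.0567). In complex IV, COX8A went from 43.1 and 45.3 to 117 and 125 CPM with sh-NC, and from 45.0 and 36.8 to 124 and 127 with sh-SH2D1A. COX7C rose by 1.68 ± 0.12 and 1.31 ± 0.12 and COX6C by 1.09 and 0.75. COX4I1 had no call, at 0.19 and 0.21. The day 5 and day 10 libraries did not overlap for UQCR11 or COX8A in either arm.

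In complex V the largest rise was that of ATP5ME, a small subunit of the membrane part. It went from 1.91 and 2.48 to 22.4 and 21.0 CPM with sh-NC and from 3.46 and 3.89 to 17.8 and 16 with sh-SH2D1A, log2 changes of 3.31 ± 0.22 and 2.2 ± 0.21. MYL5 overlaps it on the other strand, and MYL5 counts were 35.8 to 84.2% of the sum of both. ATP5MG rose by 1.44 ± 0.09 and 1.06 ± 0.09 and ATP5F1E by 1.73 and 1.45. Of the 3 genes for the c subunit of the rotor ring, ATP5MC1 went from 29.5 and 25.0 to 66.0 and 63.5 CPM with sh-NC and from 33.0 and 28.9 to 66.6 and 71.8 with sh-SH2D1A, ATP5MC2 rose by 0.76 and 0.79 and ATP5MC3 by 0.65 and 0.54. ATP5F1A had a change of 0.02 ± 0.07 with sh-NC and rose by 0.42 ± 0.07 with sh-SH2D1A. In complex II, SDHB and SDHC had no call, SDHA fell with sh-NC at -0.20 (adjusted p = 0.0346 in edgeR) and SDHD rose with sh-SH2D1A at 0.28 (0.022). The SDHA call was lost without day 5 sh-NC replicate 1 (0.21) or 2 (0.0689) and in most other omissions of 1 library. The SDHD call was lost without day 5 sh-SH2D1A replicate 1 (0.0953) or day 10 sh-SH2D1A replicate 1 (0.0733).

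**Figure D4:**
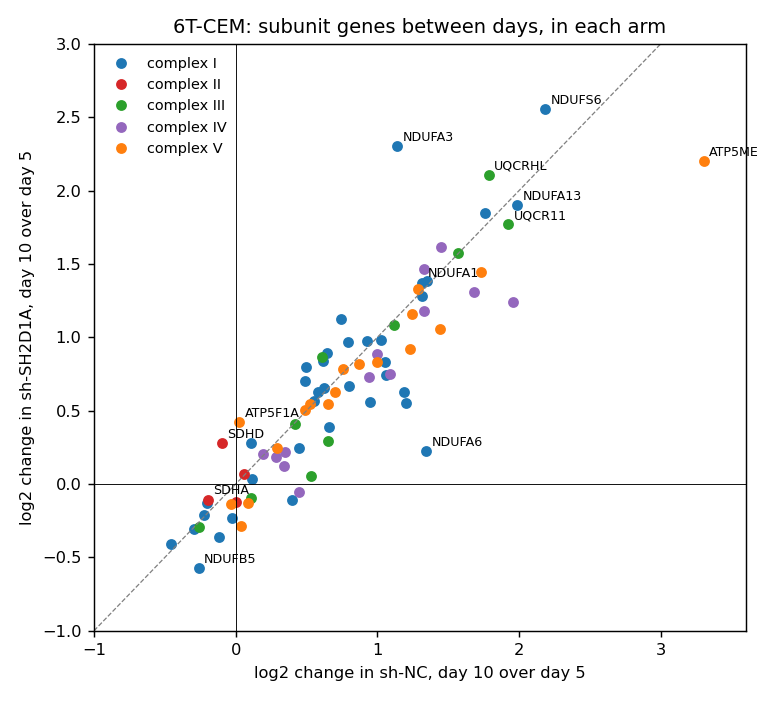
Log2 change between day 10 and day 5 in 6T-CEM for the 83 tested subunit genes, with sh-NC (x axis) against sh-SH2D1A (y axis), coloured by complex, with the line of equal change dashed. Most genes of complexes I, III, IV and V lie above 0 on both axes, ATP5ME at 3.31 and 2.2 and NDUFS6 at 2.19 and 2.56, while the 4 genes of complex II lie near 0.

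Transcript length moved with this difference. The median transcript of the tested members was 712 bases long, against 1847 bases over the 14216 tested genes with a length. Among all genes, the median log2 change with sh-NC was 0.12 for transcripts under 750 bases, 0.10 from 750 to 1500, -0.01 from 1500 to 3000 and -0.18 over 3000 bases, and with sh-SH2D1A it was 0.11, 0.11, -0.01 and -0.18. Among the members it was 0.90 and 0.75 for the 46 under 750 bases, 0.61 and 0.54 for the 25 from 750 to 1500 and 0.13 and 0.04 for the 10 from 1500 to 3000, and the only 2 that were longer had a median of 0.37 and 0.28. Members thus had a higher median than all genes in each range, by the least from 1500 to 3000 bases. Across the 83 members, Pearson's r between change and length was -0.31 and -0.30, a description over genes of the same libraries. With the trend in length removed, 58 members were higher and 8 lower with sh-NC, against 50 and 10 with sh-SH2D1A in edgeR. Over all genes, 8741 and 9539 were then called in either direction in the 2 arms, against 8797 and 9494 in the main fit. RNA quality values were not used here, and the part of length in the difference was not tested further.

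**Figure D5:**
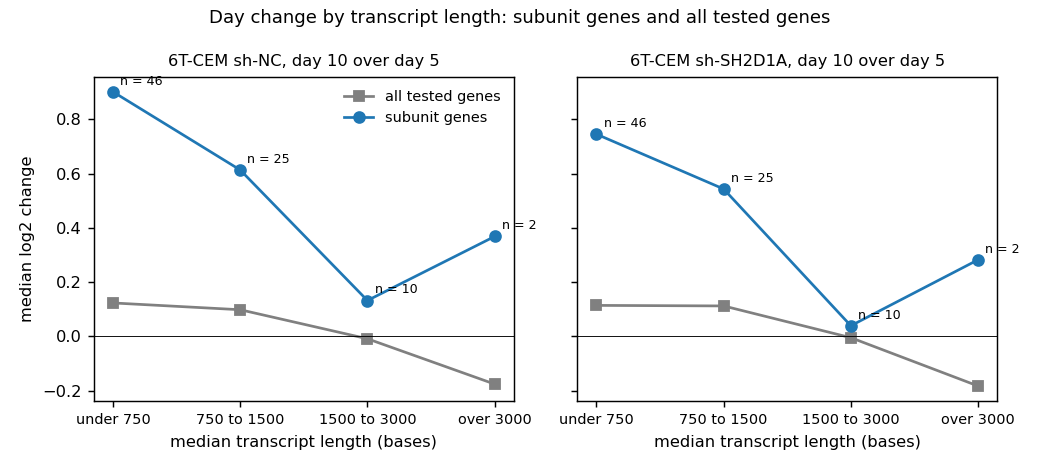
Median log2 change between day 10 and day 5 in 6T-CEM (y axis) by median transcript length (x axis, 4 ranges) for all tested genes (grey squares) and the subunit genes (blue circles, with their number), 1 panel per arm. The all-gene median falls over the longer ranges; the subunit genes' median falls up to 3000 bases and is higher again for the 2 genes above that (0.37 and 0.28), and it lies above that of all genes in each range.

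In Jurkat, day 10 against day 8 gave few calls. With sh-NC 4 members were lower and 0 higher, where 1.57% of all genes were lower and 1.83% higher, 3.4% in all. With sh-SH2D1A 1 was lower and 0 higher, where 3.2% of all genes were lower and 3.34% higher, 6.55% in all. ATP5MC1 was the gene called in both arms, from 53.0 and 61.7 to 34.4 and 34 CPM with sh-NC and from 63.3 and 62.4 to 42.6 and 39.8 with sh-SH2D1A. Its log2 changes were -0.75 ± 0.10 and -0.61 ± 0.10 (adjusted p = 0.00151 and 0.00266 in edgeR), and the days did not overlap. NDUFAB1 at -0.42, ATP5PF at -0.45 and COX5A at -0.28 were lower with sh-NC (adjusted p = 0.0363, 0.048 and 0.0464 in edgeR). All 3 lost the call without any 1 of the 4 libraries compared, with adjusted p in edgeR up to 0.291, 0.271 and 0.253. The members' median change was -0.14 and -0.11 against 0.00 over all genes. Here too the days were in separate tables, so day and table cannot be told apart.

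The lines were compared at day 10, the day they share. In both arms 5 members were higher in Jurkat and 19 lower, against 13.8% and 12.9% of all tested genes in edgeR. The higher genes were SDHA at 0.88 ± 0.07 with sh-NC and 0.92 ± 0.07 with sh-SH2D1A, NDUFA10 at 0.74 and 0.81, COX7A2L at 0.68 and 0.57, NDUFC2 at 0.53 and 0.50 and COX5A at 0.33 and 0.50. The lower genes were led by ATP5MC1 at -0.92 ± 0.10 and -0.75 ± 0.10, and held ATP5MK at -0.71 and -0.46, ATP5PF at -0.67 and -0.46, NDUFA11 at -0.59 and -0.68 and UQCRFS1, the Rieske iron-sulphur protein, at -0.56 and -0.37. The level of ATP5MC1 also differed between days in both lines, as given above, so its line difference is given for day 10 only. Complex II split, since SDHA was higher in Jurkat while SDHD, at -0.58 and -0.51, and SDHB, at -0.51 and -0.41, were lower. Taken alone, the sh-NC arm had 18.4% of all tested genes higher in Jurkat and 18.2% lower. For the sh-SH2D1A arm these shares were 18.0% and 17.7%. Each arm alone gave 7 members higher and 24 lower. Without 6T-CEM replicate 1 of the arm, each gave 5 higher and 14 lower, and with sh-SH2D1A NDUFC2 then lost its call (adjusted p = 0.0507 in edgeR). The excess of lower calls was not kept without Jurkat sh-SH2D1A replicate 2, where that arm gave 8 higher and 8 lower. In each of these omissions the count over all genes fell as well. The 2 lines were in separate tables, so line and table cannot be told apart.

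Lists of related mitochondrial genes are given for setting, each to be read against all tested genes. With sh-SH2D1A, 5.23%, 1.26%, 0.606% and 6.61% of all genes were higher and 7.13%, 2.52%, 1.51% and 7.42% lower in edgeR, in the order of the 4 comparisons above. Between days in 6T-CEM, 19.3% were higher and 20.6% lower in the sh-NC arm, against 21.4% and 21.7% in the sh-SH2D1A arm. Of 49 assembly factors, 2, 0, 0 and 3 were higher and 1, 0, 0 and 2 lower with sh-SH2D1A, in the order of the 4 comparisons above. Between days in 6T-CEM 27 were higher and 5 lower with sh-NC against 23 and 7 with sh-SH2D1A. SDHAF2, which attaches the flavin to SDHA, rose at day 10 in 6T-CEM by 0.37 on the log2 scale. Of 16 tested regulators of mitochondrial biogenesis, 4, 0, 0 and 1 were higher and 1 in each was lower, the lower gene being POLG, the mitochondrial DNA polymerase, at -0.62, -0.41, -1.06 and -0.22. Between days in 6T-CEM, 4 of the 16 were higher and 5 lower with sh-NC against 5 and 4 with sh-SH2D1A. ESRRA, a nuclear receptor that acts on respiratory genes, rose by 1.28 and 1.24. All 13 mitochondrially encoded subunits were tested. With sh-SH2D1A 5, 0, 2 and 0 of them were higher and 0, 0, 0 and 2 lower, and between days in 6T-CEM 3 were higher and 4 lower with sh-NC against 2 and 8 with sh-SH2D1A. MT-ND3 rose by 1.95 and 1.25 while MT-CO1 fell, at -0.66 and -0.79. Of 24 pyruvate and citric acid cycle genes, 0 were higher in each and 4, 2, 1 and 4 were lower with sh-SH2D1A, PDK1, which inhibits pyruvate dehydrogenase, in all 4. Between days, 6 were higher and 10 lower with sh-NC against 5 and 6 with sh-SH2D1A. Of 13 genes for cytochrome c, carriers and porins, 0, 0, 0 and 2 were higher and 3, 1, 0 and 2 lower with sh-SH2D1A, and between days 6 and 7 were higher and 0 lower. The phosphate carrier SLC25A3 fell by 0.35 at day 8 of Jurkat and by 0.19 at day 10 of 6T-CEM.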

How the data were processed

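The authors deposited 4 tables of whole-number counts, each covering 1 line on 1 day by Ensembl identifier, from total RNA made into TruSeq libraries, per the labels' protocols. HISAT2 2.2.0, StringTie and the build hg38 are listed in the submitters' processing notes. How the counts were made, on which annotation release and with which strand setting, is not given in the sources used here. Counts were not normalised. Each knockdown comparison was fitted on its own table in edgeR 4.0.16 under R 4.3.3. Genes passed filterByExpr (minimum count 10), libraries were scaled by TMM, and the quasi-likelihood test of glmQLFTest was two-sided. Calls were made at a Benjamini-Hochberg adjusted p under 0.05, adjusted over every tested gene. Differences between days, lines and knockdown changes, and the mean of the 4 knockdown changes, came from 1 fit of 16 libraries with 8 group means. SE is the absolute log2 change over the square root of F. CPM were scaled by TMM. Positions and transcript lengths are from GENCODE 29.

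The members and lists were chosen with earlier results of these data known. Named genes are paralog sets, complex II and CYC1, up to 8 called members in each direction with the lowest adjusted p in a comparison, the highest and lowest gene of each complex per length, up to 3 of each list, and SH2D1A. Other members, overlapping genes and COX4I1 values between days were chosen for naming once their values were known. Alternatives were DESeq2 1.42.0 size factors and Wald test, no filter, a replicate block, other libraries in the fit and each library left out. Removal of the trend in transcript length was chosen after seeing the data. The procedure was tested on simulated data. Pseudogene and read-through rows of the members were kept apart.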

Additional observations from a re-analysis of the deposited data

How the results depend on the processing

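Counts of called members are given as edgeR calls, and none of the members' values followed under the alternatives changed direction where called. In Jurkat at day 8 the count was 5, and it was 3 with no filter, 3 with the replicate block, 3 with all 16 libraries and 3 to 10 with single libraries left out. In Jurkat at day 10 the count was 2, and it was 0 with no filter, 4 with the replicate block and 0 to 2 with single libraries left out. In 6T-CEM at day 5 the count was 3, and it was 9 with the replicate block (4 higher, 5 lower), 14 with all 16 libraries (8 higher, 6 lower) and 0 to 14 with single libraries left out. In 6T-CEM at day 10 the count was 10, and it was 4 with no filter, 3 with all 16 libraries, each with 0 higher, and 7 to 11 with single libraries left out. The mean of the 4 changes gave 12, and 9 to 19. Jurkat day 10 against day 8 gave 4 with sh-NC, and 2 with DESeq2 size factors, 1 with the block, 2 without the length trend and 1 to 5 with single libraries left out. With sh-SH2D1A it gave 1, and 4 with only the libraries compared and 1 to 4 with single libraries left out. The lines gave 31 in each arm, and 19 to 37 with sh-NC and 16 to 37 with sh-SH2D1A; the block gave 11 higher and 15 lower, and 9 and 14. The difference between days in 6T-CEM in the knockdown change gave 0, and 1 with the block and 0 to 9 with single libraries left out. Over all genes instead of members, the main fits called 2381, 721, 412 and 2752 in the 4 knockdown comparisons, in the order used above. No filter gave 873, 0, 324 and 1099 of all genes. All 16 libraries gave 1323, 803, 3108 and 916, and the replicate block 1797, 1423, 2188 and 2796. Single omissions moved the counts over all genes in these comparisons as well. The cause was not tested in any of these. Between days in 6T-CEM the counts were 65 and 63, and 58 to 66 and 55 to 66 with single libraries left out.

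Replicate numbers were not used as pairs: the deviations of equal numbers correlated across genes at 0.00836, 0.0877, 0.0976 and 0.00526, and the block is given here as an alternative only. Where a library was left out, its lone partner was taken to vary as other groups do. With 2 libraries per group, a missed threshold does not show that values were alike.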
